A study of Marmota monax with 203 samples.

Results

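In woodchucks that carried woodchuck hepatitis virus (WHV) chronically, the dose of recombinant woodchuck interferon (wIFN-α) was raised during treatment from 20 to 100 µg per animal, and the liver transcriptome was compared across that step. The comparison used 42 liver biopsies of 21 animals out of 164 liver samples in the whole series, a few of which are labelled as from animals that died or were euthanized. The dose step is defined, for each gene, as the difference between wIFN-α and placebo animals at week 7 minus the same difference at week 3, on the log2 scale and paired by animal, which equals the change from week 3 to 7 in wIFN-α animals minus the change in placebo animals. The labels wk4 and wk8 stand for weeks 3 and 7, since they count the first treatment week as 1.

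All animals were adult woodchucks infected with WHV as neonates, and they received either placebo, which was vehicle alone, or recombinant woodchuck IFN-α by subcutaneous injection 3 times a week. The wIFN-α group held 9 animals (M1002, M1003, M1007, M1012, F1013, F1014, F1018, F1020 and F1022) and the placebo group 12 animals, where M and F give the sex. The week 3 biopsies of treated animals were taken 6 h after a dose of 20 µg, and the week 7 biopsies 6 h after the first dose of 100 µg. Dose and time on treatment therefore changed together, and the first dose of a new level was set against continued dosing at the old one, so that their parts cannot be told apart. M1004 was left out because the study judged that it was probably clearing WHV on its own. RNA-seq gave 14261509 to 84805845 reads on genes per biopsy (median 28811377), and values are given below as CPM, the reads of a gene scaled to the normalized number of gene reads of the biopsy. Each biopsy is a bulk sample, in which fewer cells of a type and less RNA per cell cannot be told apart.

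Type I interferons bind IFNAR1 and IFNAR2, and the receptor signals through JAK kinases to a transcription factor complex containing IRF9 that switches on interferon-stimulated genes (ISGs). Many ISG products act directly on viral RNA or protein, others such as USP18 and SOCS1 dampen the receptor, and the continued presence of interferon is known to leave cells partly refractory to a further dose. IFN-γ, made by T and NK cells, acts through a receptor of its own and induces an overlapping group that includes antigen-presentation genes and the chemokines CXCL9 and CXCL10.

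The library labelled F1013 at week 3 did not carry the signature of its group, and the number of genes with a dose step is therefore given with and without F1013. Its median type I ISG level was 0.01 log2 units from the placebo median of that week, whereas the 8 other wIFN-α animals lay 2.85 to 3.36 above that median and the 12 placebo animals ranged from -0.36 to 0.18. In that biopsy ISG15, a ubiquitin-like protein that conjugates to other proteins, stood at 2.67 CPM, under the lowest placebo value of 7.47 CPM and far under the 665.7 to 1198 CPM of the 8 other treated animals. At week 7 F1013 had 1063 CPM of ISG15, within the range of the others. The reason for the week 3 values was not tested.

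**Figure D1:**
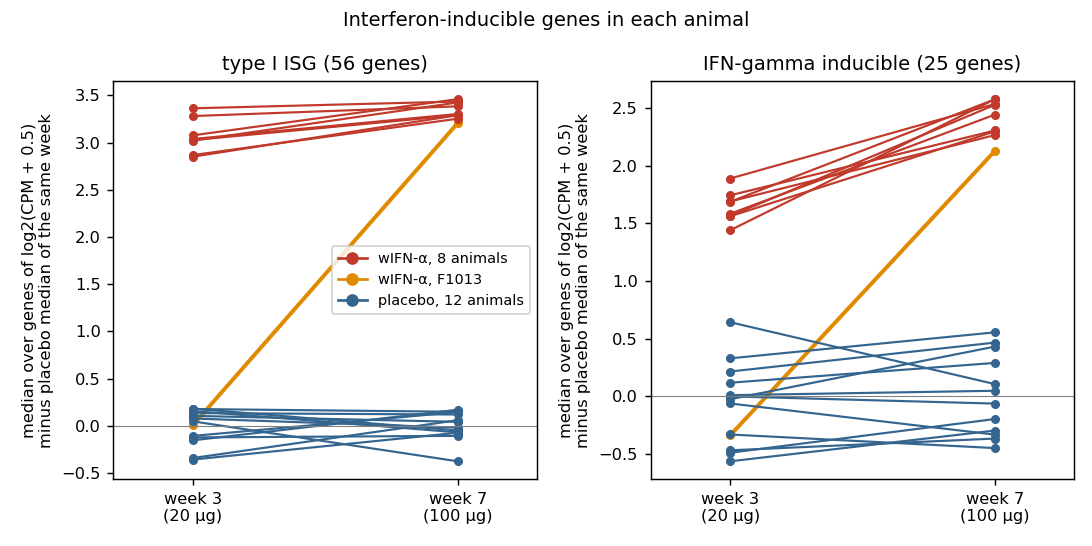
Each line joins the week 3 and week 7 biopsies of 1 animal, and the vertical axis is the median over a gene list of log2(CPM + 0.5) minus the placebo median of the same week. For type I ISGs, 8 wIFN-α animals (red) sat between 2.85 and 3.36 at week 3, F1013 (orange) sat at 0.01 among the placebo animals (blue), and the 9 treated animals lay between 3.21 and 3.46 at week 7.

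With all 21 animals, 411 of 15428 genes tested had a dose step at an adjusted p under 0.05 (edgeR quasi-likelihood test, 2.66% of genes), 255 of them in the direction of higher relative expression with wIFN-α at the high dose (1.65%) and 156 lower (1.01%). Without F1013 the numbers were 246 of 15472 genes (1.59%), with 178 higher (1.15%) and 68 lower (0.44%). Of these genes, 219 were called in both fits. Over the 178 genes called higher without F1013 the median dose step was 0.60, which came from median changes of 0.32 with wIFN-α and -0.30 with placebo. Over the 68 genes called lower the median step was -0.71, with median changes of -0.14 with wIFN-α and 0.60 with placebo, and these medians describe genes that were chosen by the same contrast. In most of the 246 genes the arm that passed its own test was placebo, which held 12 animals against 8. Of the 178 called higher, 100 fell in placebo animals without passing in wIFN-α animals, 61 rose in wIFN-α animals without passing in placebo animals and 15 passed in both arms. Of the 68 called lower, 58 rose in placebo animals alone, 5 fell in wIFN-α animals alone and 5 passed in both.

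The number of calls also rested on single animals. Leaving out M1003 gave 189 genes in place of 411 and, without F1013, 112 in place of 246, and leaving out F1018, M1007 or F1020 likewise moved both numbers by more than 1.5 times (228 to 262 with all other animals, 118 to 128 without F1013). The same held with all animals for placebo animals M1001, M1011 and F1015 (242 to 266), and without F1013 for F1015 and F1016 (157 each).

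Placebo biopsies differed widely between the weeks. Between weeks 3 and 7, 2714 genes rose and 3010 fell in placebo animals (17.5% and 19.5% of 15472 genes), whereas 671 rose and 260 fell in the 8 wIFN-α animals (4.34% and 1.68%). The placebo arm held 12 animals, so the arms differ in power. Tissue content and sequencing lane also differed between the weeks, and their parts and that of time cannot be told apart in these counts.

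Biopsies also differed in the tissue they held. Reads on 22 skeletal muscle genes made up 1% or more of gene reads in 6 of 12 placebo biopsies at week 3 (median 0.795%, up to 12.3% in F1021) but in 1 of 12 at week 7 (median 0.0613%), and in 2 of 9 wIFN-α biopsies at week 3 and 0 of 9 at week 7. The summed level of 14 stellate cell and fibroblast genes, among them the collagens COL1A1 and COL3A1, had a median of 4378 CPM in placebo animals at week 3 and 1198 CPM at week 7, against 705.7 and 666.9 CPM in wIFN-α animals. M1012 at week 3 and placebo animal M1009 at week 7 also held 7535 and 4590 CPM on 12 skin genes, where the median of every group was under 50 CPM. The 16 hepatocyte markers summed to 46750 to 172000 CPM and none had a median of 0 in any group.

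Without the 6 placebo and 2 wIFN-α animals that had 1% or more muscle reads in either biopsy, 2 genes were called in the remaining 13 animals (1913 with an unadjusted p under 0.05), and 8 when F1013 was left out as well (1795). In that fit all 246 genes called without F1013 kept their direction, with a median step of 0.49 among those called higher and -0.67 among those called lower. Muscle reads and the smaller number of animals cannot be told apart in that setting. With the level of the muscle list as a covariate, in contrast, 282 genes were called with all animals and 316 without F1013. With the sequencing lane as a covariate, 0 genes were called with all animals (1106 with an unadjusted p under 0.05, and 0 by limma-voom with the same term) and 1 without F1013, C3orf49, an uncharacterised gene chosen after its values were seen (1240 with an unadjusted p under 0.05, and 11 genes by limma-voom). Each of the 8 biopsies run in more than 1 lane was given the lane of its deepest run, and the labels do not name the flow cell, so that equal lane numbers may stand for different runs. Only 3 of 21 animals had both biopsies in the same lane, so no within-lane value was computed, and the lane term took the residual degrees of freedom from 19 to 13 and multiplied the variance of the dose step by 1.73. All 411 genes kept their direction with the lane term, with a median step of 0.47 in place of 0.57 among those called higher and -0.56 in place of -0.64 among those called lower. The genes were chosen by this contrast in biopsies that these fits share. A kept direction, with the lane term or without the animals with muscle reads, is therefore not separate evidence for a step.

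**Figure D2:**
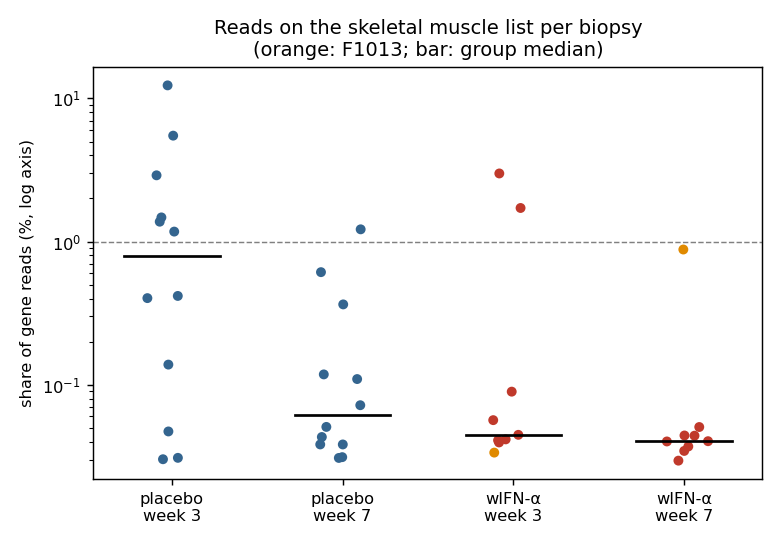
Each point is 1 biopsy, the vertical axis is the share of gene reads on 22 skeletal muscle genes in percent on a log axis, bars are group medians and the dashed line marks 1%. The placebo biopsies of week 3 reach 12.3% and have a median of 0.795%, whereas the medians of the other 3 groups lie between 0.0403% and 0.0613%.

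The classical ISGs were raised at both doses, and few had a dose step. Of the type I ISG list, 53 of 55 genes tested were called higher with wIFN-α at week 3 and 55 of 56 at week 7 (adjusted p under 0.05 and fold change above 1.5), where 7.24% and 11.4% of all genes were called higher. The median log2 difference from placebo over the list was 2.94 at week 3 and 3.24 at week 7. Without F1013, 54 of 56 and 55 of 56 list genes were called higher at weeks 3 and 7, with medians of 3.12 and 3.27. Over all genes 1237 of 15062 and 1765 of 14904 were called higher in that setting. The median dose step of the list was 0.36 with all animals and 0.09 without F1013, beside 0.03 over all genes in either fit. The number of list genes called higher in the dose step was 3 of 56 with all animals and 6 of 57 without F1013 (10.5% beside 1.15% of all genes), and 0 were called lower. In the change from week 3 to 7, 13 of 57 rose in the 8 treated animals, where 4.34% of all genes rose, and 15 rose in placebo animals, where 17.5% did.

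The 6 genes called without F1013 were HERC5, ZBP1, OAS1, RSAD2, ISG20 and IFI27, of which ISG20 and IFI27 are outside the naming rule and were chosen after their values were seen. RSAD2, known as viperin, makes a nucleotide analogue that halts viral polymerases. In the 8 treated animals it ranged from 1128 to 2787 CPM at week 3 (median 1679) and from 2229 to 3800 CPM at week 7 (median 3214). It was higher at week 7 in each of the 8, and placebo animals stayed between 14.3 and 30.6 CPM at both weeks. The dose step of RSAD2 was 0.78 ± 0.14 (SE, adjusted p = 0.00996, edgeR), and with F1013 included it was 1.14 ± 0.52 (adjusted p = 0.237).

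HERC5, the ligase that attaches ISG15 to newly made proteins, had the highest dose step of the list. Its level in the 8 treated animals went from a median of 442.8 CPM (378.3 to 577.8) to 698.1 CPM (640.8 to 842.9), so that the ranges of the weeks did not overlap. In placebo animals it went from a median of 57.5 CPM to 35.6 CPM, with a lower value at week 7 in 11 of 12. The step was 1.43 ± 0.20 without F1013 (adjusted p = 0.00256, edgeR) and 1.72 ± 0.35 with it (adjusted p = 0.0161).

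ZBP1, a sensor of Z-form nucleic acid that can start necroptosis, ranged from 71.4 to 166.8 CPM at week 3 (median 115.4) and from 138.5 to 266.3 CPM at week 7 (median 189.4) in the 8 animals. Its step was 1.26 ± 0.20 without F1013 (adjusted p = 0.00577, edgeR), made of a rise of 0.80 in treated animals and a fall of 0.46 in placebo animals. OAS1, which makes the 2′-5′ oligoadenylates that activate RNase L, had a step of 0.88 ± 0.15 (adjusted p = 0.00811), and with F1013 included it missed the threshold (1.17 ± 0.34, adjusted p = 0.0584). Its median in the treated animals went from 90.3 to 117.4 CPM while that of placebo animals went from 4.40 to 3.80 CPM. ISG20, an exonuclease reported to act on hepadnaviral RNA, had a step of 0.62 ± 0.13 and IFI27, a mitochondrial protein, of 0.42 ± 0.10.

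Other ISGs did not pass the test of the dose step. ISG15 had a median of 842.0 CPM at week 3 and 963.5 CPM at week 7 in the 8 animals, with a step of 0.37 ± 0.34 (adjusted p = 0.647, edgeR). USP18, which removes ISG15 and blocks IFNAR2 signaling, had a step of 0.00 ± 0.30 that did not pass, and its medians were 294.4 and 384.7 CPM in the 8 treated animals and 5.28 and 7.78 CPM in the 12 placebo animals. MX1, a dynamin-like antiviral GTPase, had a median of 6966 CPM at week 3 and 8096 CPM at week 7 in the 8 treated animals. In placebo animals MX1 rose by 0.83 ± 0.16 on the log2 scale, higher in 12 of 12, and its dose step was -0.57 ± 0.25 (adjusted p = 0.262). IFIT1, which binds viral RNA with an unusual cap, rose in the treated animals by 0.44 ± 0.09 (adjusted p = 0.00724, edgeR) while its dose step of 0.38 ± 0.12 did not pass (adjusted p = 0.0973).

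Of 11 interferon receptor and JAK-STAT genes, 0 were called in the dose step by edgeR without F1013 (2 had an unadjusted p under 0.05, and DESeq2 called 1), and 1 was called lower with all animals, IFNGR1, a chain of the IFN-γ receptor, at -0.47 ± 0.11 (adjusted p = 0.0269, edgeR). IFNGR1 was outside the naming rule. The steps of IFNAR1 and IFNAR2 were 0.12 ± 0.12 and 0.26 ± 0.14 without F1013 and that of IRF9 was 0.13 ± 0.08, and none of the 3 passed. Among 12 feedback inhibitors 0 were called by edgeR or DESeq2 (1 with an unadjusted p under 0.05), with SOCS1 at 0.21 ± 0.14 and SOCS3 at 0.11 ± 0.35. Of 8 interferon regulatory factors, 1 was called higher and 0 lower without F1013, and 1 higher and 1 lower with all animals. Over all genes 1.59% were called without F1013 and 2.66% with all animals, so that few calls or none are expected in lists this small. The regulatory factor called higher in both fits was IRF3, which starts interferon production on sensing viral nucleic acid. The step of IRF3 was 0.34 ± 0.08 without F1013 (adjusted p = 0.0389, edgeR). Its median in the 8 treated animals was 39.6 CPM at week 3 and 43.5 CPM at week 7.

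Of 25 genes known for induction by IFN-γ, 16 were called higher with wIFN-α at week 3 and 20 at week 7, with a median log2 difference of 1.44 and 2.29. Without F1013 the numbers were 18 and 20, with medians of 1.58 and 2.30. Over all genes 7.24% were called higher at week 3 and 11.4% at week 7. Without F1013 these were 1237 of 15062 and 1765 of 14904 genes. The median dose step was 0.81 with all animals (3 called higher) and 0.54 without F1013 (5 called higher), again beside 0.03 over all genes, and 0 were called lower. Of all genes 1.65% and 1.15% were called higher in these fits. In the 8 treated animals 10 of the 25 rose, where 4.34% of all genes did, and in placebo animals 7 fell, where 19.5% of all genes did. The median change over the list was positive in each of the 9 treated animals (0.21 to 2.18, with F1013 highest) and in 4 of 12 placebo animals.

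The 5 genes called without F1013 were IRGM, WARS, PSMB10, PSMB8 and GBP2, the last named after its values were seen, and the 3 called with all animals were WARS, PSMB10 and PLA2G2A. With all animals IRGM and PSMB8 missed the threshold (adjusted p = 0.0568 and 0.0518, edgeR), as did GBP2. IRGM, a GTPase of autophagy, ranged from 147.8 to 229.1 CPM at week 3 and from 214.1 to 352.7 CPM at week 7 in the 8 animals, with a step of 0.83 ± 0.13 (adjusted p = 0.00577, edgeR). PSMB8 and PSMB10, catalytic subunits of the immunoproteasome that cuts peptides for presentation, had steps of 0.67 ± 0.17 and 0.69 ± 0.14. WARS, the tryptophanyl-tRNA synthetase, had a step of 0.76 ± 0.15 (adjusted p = 0.0149) and a median of 52.8 CPM at week 3 and 73.6 CPM at week 7. GBP2, a guanylate-binding GTPase, went from 36.5 to 67.3 CPM at week 3 to 71.5 to 114.0 CPM at week 7, with no overlap, and its step was 0.59 ± 0.13.

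The chemokines that attract CXCR3-bearing T cells rose in the treated animals but missed the threshold of the dose step. CXCL10 rose in the 8 treated animals by 0.94 ± 0.21 (adjusted p = 0.0126, edgeR), from a median of 2218 CPM to 3679 CPM, and its dose step was 0.72 ± 0.27 (adjusted p = 0.187). CXCL9 ranged from 25.0 to 347.0 CPM at week 3 and from 47.7 to 707.9 CPM at week 7 in these animals, and the placebo animals reached 125.1 and 198.7 CPM, so that treated and placebo animals overlapped at both weeks. CXCL9 rose in the 8 animals by 1.17 ± 0.29 (adjusted p = 0.022, edgeR). Its step was 1.25 ± 0.38 (adjusted p = 0.0947). CD274, the ligand of the inhibitory receptor PD-1, had a step of 0.72 ± 0.21 (adjusted p = 0.0882), and IDO1, which breaks down tryptophan, of 0.56 ± 0.49 (adjusted p = 0.623).

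Few markers of infiltrating and resident cells had a dose step. In the 12 lists of T cell, cytotoxic and NK cell, Kupffer cell and macrophage, neutrophil, erythrocyte, endothelial cell, stellate cell and fibroblast, cholangiocyte, hepatocyte, skeletal muscle, skin and adipocyte and mesothelium genes, 0 genes were called in either direction by edgeR, with or without F1013. Without F1013, 12 of their 171 genes had an unadjusted p under 0.05, where 15.6% of all genes did, and DESeq2 called 2. Over all genes edgeR called 1.59% without F1013 and 2.66% with all animals, so that few calls are expected in these lists. The median steps of the 12 lists without F1013 ran from -0.38 (adipocyte and mesothelium) to 0.83 (6 erythrocyte genes), with 0.35 for neutrophil, 0.07 for T cell and 0.02 for cytotoxic and NK cell genes. The erythrocyte median changed by -0.96 in placebo and -0.13 in the 8 treated animals, and per animal from -2.49 to 0.32 and from -1.81 to 2.51, with overlap. CD8A, the co-receptor of cytotoxic T cells, had a step of 0.16 ± 0.18 and PRF1, the pore protein of their granules, of -0.15 ± 0.26. The exception among marker lists was the B and plasma cell list with 1 of 12 genes called higher, DERL3, which is described below as a gene of endoplasmic reticulum quality control, and with all animals also 1 called lower, POU2AF1, a B cell coactivator outside the naming rule (-0.77 ± 0.20). The skeletal muscle list had a median fitted step of 0.14 without F1013 and 1.18 with it. Its median change per animal ran from -9.71 to 3.91 in placebo animals (median -1.82) and from -8.48 to 0.06 in the 8 treated animals (median -0.14), of which F1018 and M1012 held 1% or more muscle reads at week 3.

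**Figure D3:**
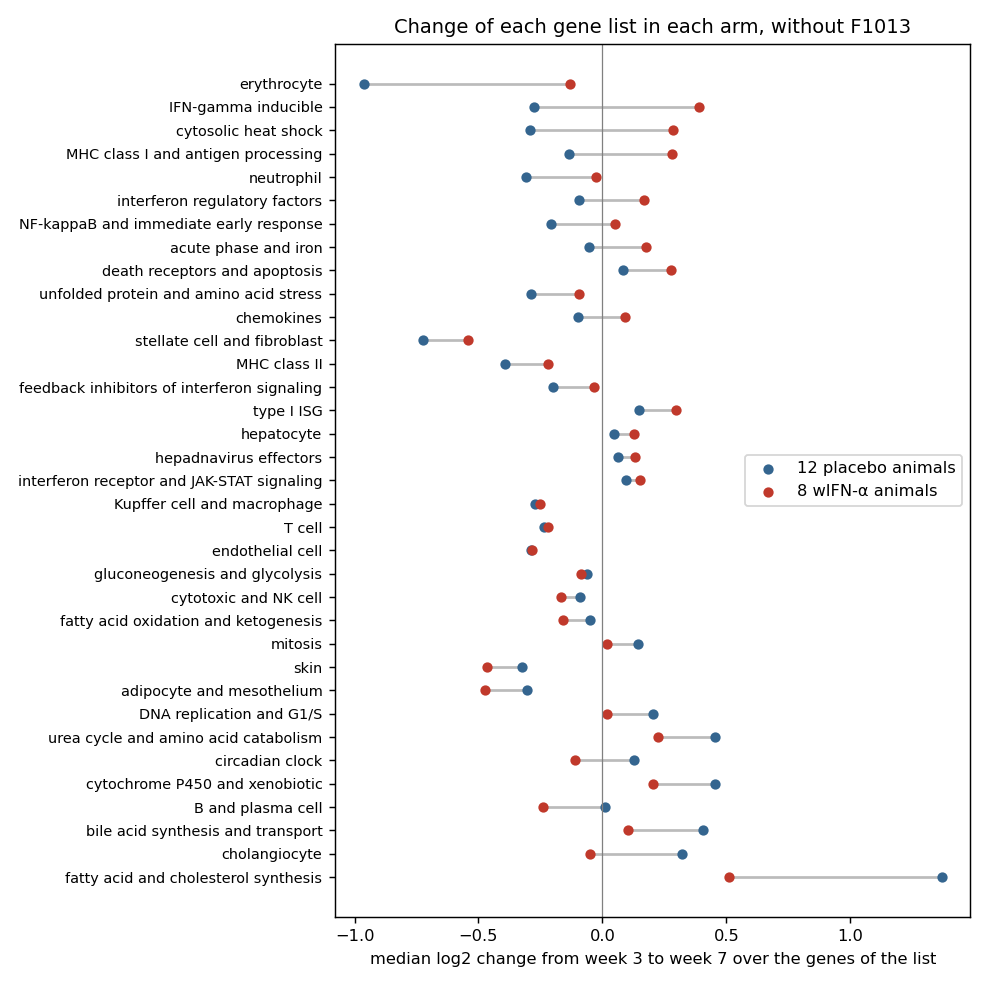
For each gene list, the points give the median log2 change from week 3 to week 7 over its genes in 12 placebo animals (blue) and 8 wIFN-α animals without F1013 (red). The skeletal muscle list is left off the axis because its fitted medians were -3.04 and -2.75, and the widest gaps on the plot include the erythrocyte list (-0.96 in placebo, -0.13 in treated animals), fatty acid and cholesterol synthesis (1.37 in placebo, 0.51 in treated animals) and the IFN-γ inducible list (-0.27 in placebo, 0.39 in treated animals).

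Several of the largest steps outside the interferon lists were in genes of low expression. LGALS13, annotated as a galectin, was nearly absent in placebo animals, which had 0 to 0.780 CPM at week 3 and 0 to 0.406 CPM at week 7. The 8 treated animals had 0.553 to 2.10 CPM at week 3 and 1.19 to 9.98 CPM at week 7, and all 8 were higher at week 7. Its dose step was 2.18 ± 0.47 without F1013 (adjusted p = 0.0226, edgeR) and 2.41 ± 0.53 with it (adjusted p = 0.0196). Since the genes carry human-style symbols given by similarity, a member of a gene family such as the galectins may have received its name from a relative.

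AREG, the EGF receptor ligand amphiregulin made in injured liver, ranged from 4.60 to 16.1 CPM at week 3 and from 11.6 to 40.9 CPM at week 7 in the 8 animals, higher at week 7 in 7 of 8. Placebo animals had medians of 1.81 and 1.38 CPM. The step of AREG was 1.56 ± 0.38 (adjusted p = 0.0413, edgeR). ADM, the vasodilator adrenomedullin, had a step of 1.39 ± 0.32, made of a change of 0.56 in treated animals that did not pass and a fall of 0.83 in placebo animals. ADAMTS17, a secreted metalloprotease, had a step of 1.81 ± 0.45, FNDC5, the precursor of irisin, of 1.47 ± 0.32 and RWDD2A of 1.33 ± 0.33.

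PLA2G2A, a secreted phospholipase that is bactericidal and is counted among acute phase proteins, had the highest step among called genes of at least 1 CPM with all animals, 2.43 ± 0.59 (adjusted p = 0.0312, edgeR). Without F1013 the step was 2.28 ± 0.59 and missed the threshold (adjusted p = 0.0549). In placebo animals it fell by 1.78 ± 0.40 on the log2 scale without F1013 in the fit, from a median of 14.2 CPM (1.28 to 54.2) to 2.19 CPM (0.266 to 21.2), lower at week 7 in 11 of 12. In the 8 treated animals the medians were 11.1 CPM at week 3 and 16.4 CPM at week 7, and the change did not pass (adjusted p = 0.51).

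**Figure D4:**
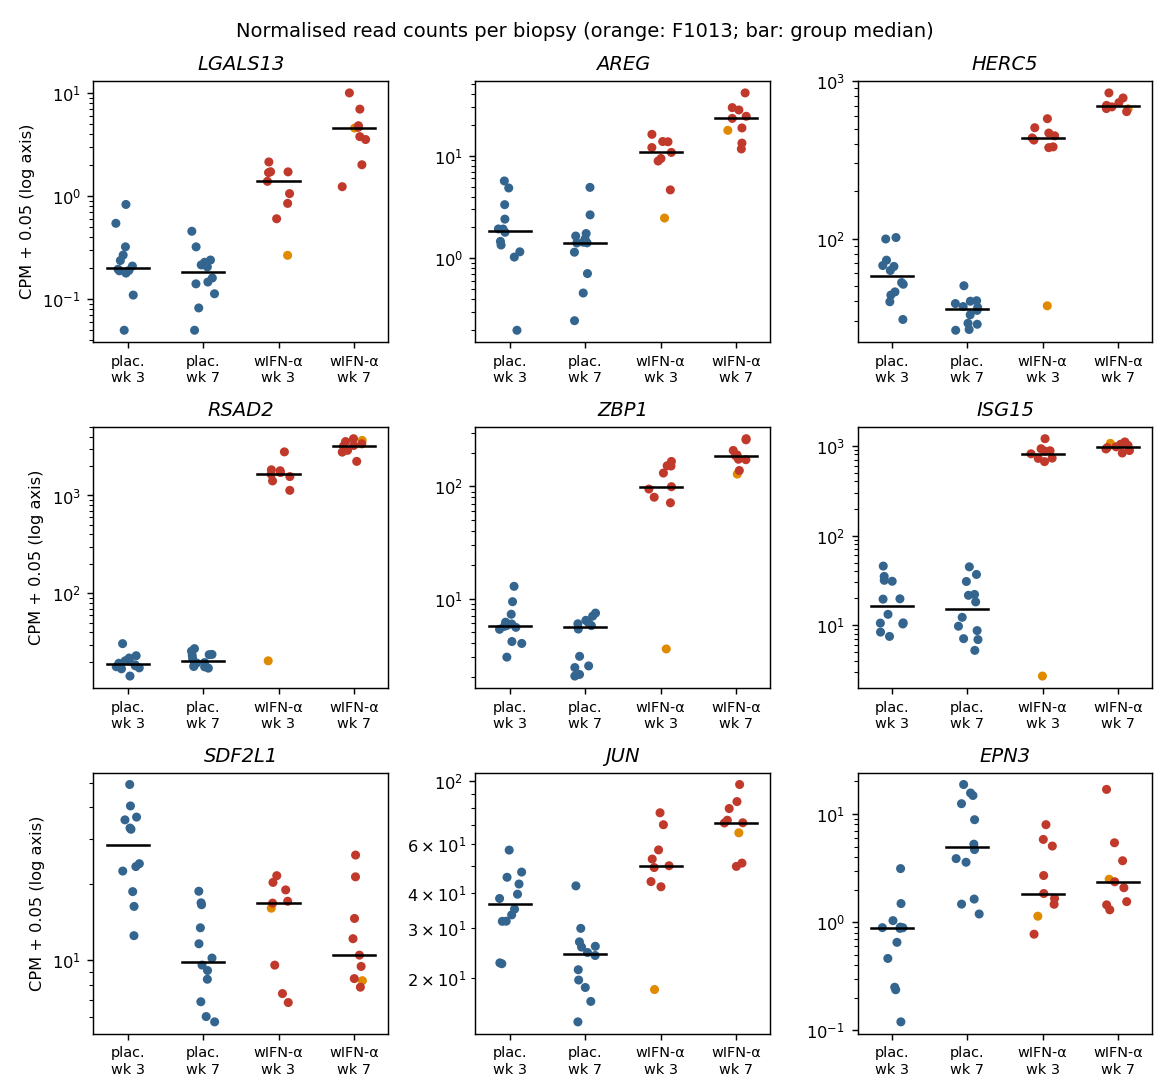
Each point is the CPM of 1 biopsy (0.05 added, log axes) for 9 genes, in placebo animals (blue) and wIFN-α animals (red, with F1013 in orange) at weeks 3 and 7, and bars are group medians. For HERC5 the 8 treated animals lie between 378.3 and 577.8 CPM at week 3 and between 640.8 and 842.9 CPM at week 7, whereas for SDF2L1 and EPN3 the shift between weeks is in the placebo animals.

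Genes of stress-response transcription and death signaling were also called. JUN, a subunit of AP-1, had a median of 51.4 CPM at week 3 and 71.8 CPM at week 7 in the 8 treated animals, against 36.6 and 24.2 CPM in placebo animals, and a step of 1.02 ± 0.20 (adjusted p = 0.0163, edgeR). NFKB1, which encodes the p50 subunit of NF-κB, had a step of 0.43 ± 0.09 (adjusted p = 0.0174, edgeR). JUN and NFKB1 were the 2 of 22 genes of the NF-κB and immediate early list called without F1013, where 1.15% of all genes were called higher. RELB was the third when F1013 was included. The 3 adaptors and inhibitors of TNF receptor signaling TRAF2, BIRC2 and BIRC3, chosen after their values were seen, had steps of 0.51 ± 0.09, 0.35 ± 0.08 and 0.41 ± 0.10. FAS, a death receptor of hepatocytes, went from 34.1 to 49.0 CPM to 39.9 to 64.8 CPM in the 8 animals, each of which was higher at week 7, with a step of 0.41 ± 0.09 (adjusted p = 0.0207) that missed the threshold with F1013 included (adjusted p = 0.0535). FAS was the only 1 of 21 death receptor and apoptosis genes called without F1013, where 1.15% of all genes were called higher, and 0 were called with all animals. TNFSF10, the ligand TRAIL, had a step of 0.16 ± 0.13 (adjusted p = 0.59).

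Molecular chaperones were among the genes with a step in the same direction. In the endoplasmic reticulum, SDF2L1, CRELD2, MANF and DERL3, which assist protein folding or the disposal of misfolded proteins, had steps of 1.27 ± 0.19, 1.39 ± 0.31, 0.74 ± 0.18 and 0.94 ± 0.18 without F1013. All 4 fell in placebo animals and none passed in the treated animals. SDF2L1 fell in placebo animals by 1.37 ± 0.12 on the log2 scale, lower at week 7 in 12 of 12 and from a median of 28.3 to 9.85 CPM, whereas the change in the 8 treated animals was -0.10 ± 0.15 (adjusted p = 0.722, edgeR) around medians of 16.9 and 11.3 CPM. At week 3 SDF2L1 was lower with wIFN-α than with placebo by 0.95 ± 0.25 (adjusted p = 0.0095), and at week 7 the difference was 0.25 ± 0.25 (adjusted p = 0.422). Of the 19 genes of the unfolded protein and amino acid stress list, 3 were called higher without F1013, where 1.15% of all genes were, and 0 lower. In placebo animals 10 fell, where 19.5% of all genes fell.

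Cytosolic heat shock genes, a list that was added after the calls had been seen, held 6 of 36 genes called higher without F1013 and 8 with all animals, where 1.15% and 1.65% of all genes were called higher, and 0 lower. Since the list was written with the calls known, nothing is read from this count. HSPA8, the constitutive HSP70, had a median of 1889 CPM at week 3 and 1926 CPM at week 7 in the 8 treated animals and of 1346 and 902.9 CPM in placebo animals, with a step of 1.11 ± 0.27 (adjusted p = 0.0413, edgeR). HSP90AA1, the inducible HSP90, had a step of 0.87 ± 0.21, and its co-chaperones STIP1 and DNAJA1 had steps of 0.92 ± 0.19 and 0.74 ± 0.19. The list of MHC class I and antigen processing genes, likewise added afterwards, held 5 of 18 called higher without F1013 and 8 with all animals. Nothing is read from this count either, beside the same 1.15% and 1.65% of all genes. At week 7 all 18 genes of the list were called higher with wIFN-α, against 14 at week 3, and without F1013 the numbers were 18 and 15. Over all genes 11.4% were called higher at week 7 and 7.24% at week 3. From these weekly counts, too, nothing is read. HLA-F, HLA-G, HLA-H, HLA-J and HLA-L had steps of 0.64, 0.51, 0.82, 0.62 and 0.87. These genes belong to 1 family whose reads the counting may have split, so the 5 values may not be separate measurements.

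**Figure D5:**
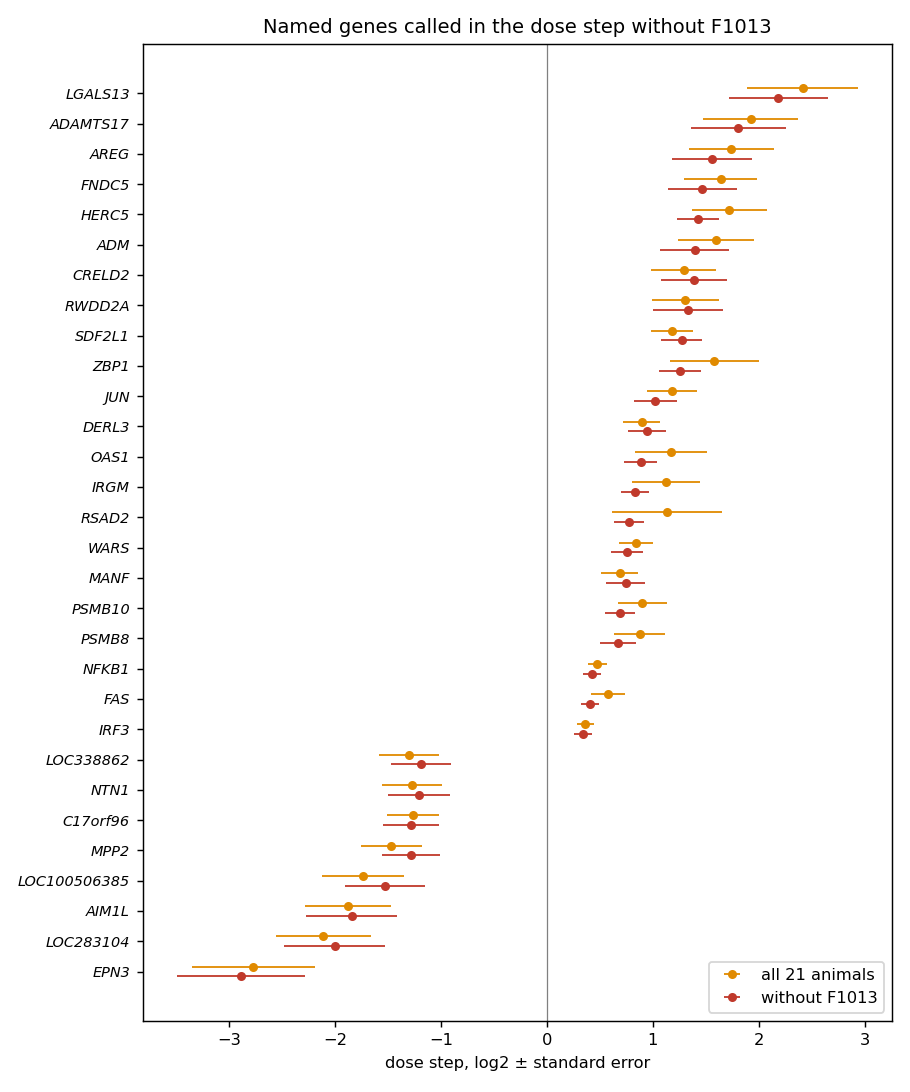
Points give the dose step on the log2 scale with its standard error for the named genes called without F1013, in the fit of all 21 animals (orange) and without F1013 (red). The 22 genes above 0 reach 2.18 (LGALS13) and the 8 below reach -2.89 (EPN3) without F1013, and the error of ISGs such as RSAD2 is wider with F1013 in the fit (0.52 against 0.14).

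EPN3, an endocytic adaptor, had the lowest value, -2.89 ± 0.60 without F1013 (adjusted p = 0.0207, edgeR). It was higher at week 7 in 12 of 12 placebo animals, whose median went from 0.830 to 4.92 CPM, and in 4 of 8 treated animals, whose medians were 2.22 and 2.17 CPM. NTN1, the guidance cue netrin, had a step of -1.20 ± 0.29 and was higher at week 7 in 12 of 12 placebo animals (median 34.0 to 82.2 CPM) with medians of 32.5 and 35.2 CPM in the 8 treated animals. AIM1L had a step of -1.84 ± 0.43 and was lower at week 7 in 8 of 8 treated animals. LOC283104, LOC100506385, C17orf96, MPP2 and LOC338862 completed the 8 lowest, with steps at or under -1.19.

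A few more genes called lower are named after their values were seen. THRB, the thyroid hormone receptor that predominates in liver, was higher at week 7 in 12 of 12 placebo animals (median 45.0 to 63.5 CPM) and stayed at medians of 32.3 and 32.6 CPM in the 8 treated animals, with a step of -0.53 ± 0.09 (adjusted p = 0.00751, edgeR). GHR, the growth hormone receptor, had medians of 70.0 and 103.3 CPM in placebo animals and of 78.6 and 80.3 CPM in treated animals, with a step of -0.60 ± 0.12 (adjusted p = 0.0178). SIK2, a kinase that restrains the gluconeogenic program, had a step of -0.66 ± 0.09 (adjusted p = 0.00275), made of a rise of 0.39 in placebo animals and a fall of 0.27 in treated animals.

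Of 31 fatty acid and cholesterol synthesis genes, 28 passed as higher at week 7 in placebo animals, where 17.5% of all genes did, and 0 passed in the 8 treated animals (3 in the 9 with F1013), although the median over the list was higher at week 7 in 7 of these 8. The median change was 1.37 in placebo and 0.51 in treated animals, and the median step was -0.55 with all animals and -0.50 without F1013. With all animals ELOVL6, which elongates fatty acids, and DGAT2, which catalyses the last step of triglyceride synthesis, were called lower at -1.65 ± 0.45 and -1.10 ± 0.29. Without F1013 they were at -1.75 ± 0.47 (adjusted p = 0.0619, edgeR) and -1.13 ± 0.31 (adjusted p = 0.0679), and 0 genes of the list were called by edgeR (9 had an unadjusted p under 0.05, and DESeq2 called 3). Of all genes 1.01% were called lower with all animals and 0.44% without F1013. Per animal the median change over the list was 0.37 to 2.53 in placebo and -0.68 to 2.47 in the 8 treated animals, so the groups overlapped.

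Other functions of the hepatocyte gave similar counts. In placebo animals 18 of 27 cytochrome P450 and xenobiotic genes, 12 of 19 bile acid genes and 14 of 22 urea cycle and amino acid catabolism genes rose (17.5% of all genes did), and 3, 2 and 0 passed as higher in the 8 treated animals, while 0 of each list were called in the dose step by edgeR without F1013 (5, 6 and 3 with an unadjusted p under 0.05, and 3, 1 and 1 by DESeq2). With all animals NR1I3 and POR of the cytochrome P450 list, outside the naming rule, were called lower at -0.81 ± 0.20 and -0.38 ± 0.10. The median steps of the 3 lists were -0.26, -0.37 and -0.19. ALB, encoding albumin, had a step of -0.02 ± 0.26, and SLC10A1, the bile acid carrier that serves hepatitis B virus as its receptor, of -0.39 ± 0.28 (adjusted p = 0.535, edgeR). Among 18 circadian clock genes 3 were called lower with all animals and 0 without F1013 (6 with an unadjusted p under 0.05, and 5 by DESeq2), with a median step of -0.39 without it. Of all genes 1.01% were called lower with all animals and 0.44% without F1013, where 15.6% had an unadjusted p under 0.05. In lists this small 0 calls are therefore expected often.

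The mitosis list and the DNA replication list held 0 called genes of 24 and 22 by edgeR or DESeq2 in the fit without F1013 (0 and 1 with an unadjusted p under 0.05). Among 11 genes reported to restrict hepadnaviruses 0 were called by edgeR or DESeq2 without F1013 (1 with an unadjusted p under 0.05), with APOBEC3H, a cytidine deaminase, at 0.35 ± 0.27. Over all genes edgeR called 1.59% in that fit, and 15.6% had an unadjusted p under 0.05. In lists this small 0 calls therefore do not show that a step was absent.

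Viral RNA in the same libraries was compared as the share of all counted reads that fell on the WHV entry. It was 1.49 to 3.33% at week 3 (median 1.96%) and 1.18 to 3.50% at week 7 (median 1.49%) in the 9 wIFN-α animals, and 0.886 to 3.68% (median 2.14%) and 0.962 to 3.60% (median 2.08%) in the 12 placebo animals. The share was lower at week 7 in 6 of 9 treated and 5 of 12 placebo animals, and the groups overlapped at both weeks. Placebo animal F1021, whose week 3 biopsy held 12.3% muscle reads, had the lowest week 3 share (0.886%) and the largest rise (0.83 on the log2 scale). The share was not corrected for tissue content. The mean log2 change was -0.25 ± 0.31 (SD, n = 9) with wIFN-α and 0.02 ± 0.40 (SD, n = 12) with placebo, a difference of -0.27 (exact two-sided permutation test, p = 0.105). Without F1013 the difference was -0.26 (exact permutation p = 0.138). The difference in the change of the WHV share was therefore not larger than the spread between animals.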

How the data were processed

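The authors sequenced liver RNA and, per the labels, processed the reads with CASAVA, FastQC, Bowtie2, SAMtools and DESeq (versions not given in the sources used here), aligning them to their own woodchuck transcriptome assembly. The deposited values are expected counts per gene without normalization, with RPKM values beside them in the same files. Deposited RPKM values were used only to check the unit. The 51 runs of the 42 biopsies were summed per animal and week and rounded (45 entries of the runs read were fractions), 8 biopsies having more than 1 run. Genes not listed in a run were taken as 0, and the WHV entry entered neither the library sizes nor the tests. Genes have human-style symbols without coordinates, so no position or sequence is given.

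The tests used edgeR 4.0.16 under R 4.3.3 (TMM, filterByExpr, quasi-likelihood test, Benjamini-Hochberg adjustment over all genes tested). The dose step was the interaction of week and treatment with the animal as a block, called at an adjusted p under 0.05, and the arms' changes were contrasts of the same fit. Each week was also fitted alone (fold change above 1.5 in addition). The standard error (SE) is the log2 value divided by the root of its F statistic, and the p of some genes with few reads (PRF1 among those named) is higher than that F gives because edgeR bounds it by a Poisson test. The same animal gave both biopsies of a pair, and deviations from the group means correlated above 0.1 in 18 of 21 pairs (median 0.302).

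Named genes were the 8 highest and 8 lowest steps in each fit among those called and averaging 1 CPM or more, a panel of interferon, immune and hepatocyte genes, and at most 4 called genes of each of 34 lists. Members and lists were chosen with earlier results of these data known, and 2 lists were added after the calls had been seen. Per-animal values used log2(CPM + 0.5). Alternatives used DESeq2 1.42.0, limma 3.58.1, other normalization and filters, covariates and animals left out. The tests were tested on simulated data. Some genes are not reported here. Summaries used Python 3.11.15 with pandas 2.3.3 and numpy 2.4.6, and plots used matplotlib 3.10.9. Counting error is small at 14261509 or more gene reads per biopsy except for genes near 1 CPM.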

Additional observations from a re-analysis of the deposited data

Results flagged for a closer look

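In the 9 wIFN-α animals, 89 sets of changes from week 3 to 7 (log2 scale, 1 value per animal) were examined for a sample far from the others (Dixon's gap over range), and 31 stood out, where chance gives about 1 in 20. F1013 was the far sample in 24 of them. The sets are not independent, since several genes were examined singly and again within a list. The 24 therefore describe 1 animal and are not separate observations to set against that rate.

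F1013 had the highest change in ISG15 (8.39), CXCL10 (7.59), RSAD2 (7.44), USP18 (6.98), IFIT1 (5.63), ZBP1 (5.01), HERC5 (4.14), IRGM (3.96), IDO1 (3.95), OAS1 (3.84), MX1 (3.6), TNFSF10 (2.59), PSMB10 (2.59), PSMB8 (2.34), CD274 (1.95), FAS (1.95), JUN (1.83) and IRF9 (0.92). It had the lowest change in LOC100506385 (-2.06). The median change of F1013 was also the highest over the type I ISG list (3.4), the IFN-γ inducible list (2.18), interferon regulatory factors (0.974), hepadnavirus effectors (0.908) and the interferon receptor and JAK-STAT list (0.459). These are the genes and lists in which its week 3 library lay at the placebo level or near it, and the reason was not tested.

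M1012, whose week 3 biopsy held skin and muscle reads, stood apart in the skin list (-6.88), AIM1L (-2.41), the urea cycle list (0.724), the acute phase list (0.65) and the hepatocyte list (0.491). F1014 was lowest in the adipocyte and mesothelium list (-3.59) and F1018, whose week 3 biopsy held muscle reads, in the circadian list (-0.685). The dose step is itself a difference between weeks in the effect of wIFN-α, and it was past the threshold in 411 genes with all animals and 246 without F1013.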

How the results depend on the processing

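The count of 411 genes called with all animals became 223 with a fold change above 1.5 in addition, 970 by DESeq2, 744 with M1004 included, 239 without F1013 and F1021, 2 without animals over 1% muscle reads, and 0 with the lane as a covariate by edgeR, by limma-voom or without the animal block. Leaving out 1 animal gave 189 to 539. The count of 246 without F1013 became 137, 682 and 507 in the first 3 of these settings, 416 with muscle and fibroblast levels as covariates, 8 without animals over 1% muscle reads, and 1, 11 and 0 with the lane by edgeR, by limma-voom and without the block, and 112 to 326 without 1 animal. The animal block mattered to the calls. Without the replicate block the pairing by animal is lost, and 45 and 20 genes were called in the dose step, 442 in the change of wIFN-α animals and 4113 in that of placebo animals.

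Of the named genes, 29 were called with all animals, 7 without the replicate block, 0 with the lane in any of its 3 fits, 14 with week 0 in place of week 3 and 0 without animals over 1% muscle reads. Leaving out 1 animal gave 20 to 30. At a fold change above 2, 594 and 919 genes were called higher at weeks 3 and 7, and leaving out F1013 or F1021 gave 1101 to 1237 and 1678 to 1765. The change in wIFN-α animals gave 931 to 1974 genes and that in placebo animals 4786 to 5724 in the same settings. RLE normalization, the deepest run, limma-voom, no filter on low counts, week by sex and the muscle covariate left both step counts within 1.5 times. With week 0 in place of week 3 the counts were 497 and 293, but 63 of the 411 and 49 of the 246 genes were also called and 364 and 232 kept their direction. In no other setting did a called gene with a value change direction, and none of the named genes that were called reversed with week 0. The settings share biopsies with the fit that chose the genes, so a kept direction is not separate evidence. The lane by limma-voom or without the block, and the settings on muscle and fibroblast reads, were chosen after seeing the data. The cause of these shifts was not tested. Genes near 1 CPM are limited by depth.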
